A study of Rattus norvegicus with 7 samples.

Results

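The 40 genes described here belong to glycolysis and to the response of cells to low oxygen. They were chosen by name, with earlier results of these data known, and matched to the platform's gene annotation. The shares of members called are therefore descriptions. Of these genes, 39 had at least 1 probe set carrying their own symbol, together 65 of the 31099 probe sets of the rat array, and 17 had 2 or more. Pcx was found under its synonym Pc. Pkm, the pyruvate kinase gene, was annotated only to a probe set that carries 2 symbols, so no value is given for it. RNA came from 7 independent cultures of NRK-52E, an established line of rat kidney epithelial cells, with 1 array per culture. The groups were siRNA 3488 (2 cultures) and siRNA 2600 (2 cultures), both directed against Adamts16, a secreted metalloprotease gene, and a scrambled siRNA as control (3 cultures). Every culture, the controls included, received its siRNA by lipofection (100 pmol per ml of medium with 10% serum, on cells seeded at 20% confluence) and was harvested after 48 h. All results thus describe 1 cell line, and the same 3 control arrays serve every comparison with the control.

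Glycolysis splits glucose into pyruvate in the cytosol. Lactate dehydrogenase converts pyruvate to lactate and monocarboxylate transporters export it, while pyruvate dehydrogenase kinases limit the oxidation of pyruvate in the mitochondria. Where oxygen is plentiful, prolyl hydroxylases mark the HIF alpha subunits and the Vhl protein directs their destruction. In low oxygen the subunits persist, pair with Arnt, and switch on genes for glucose uptake, most glycolytic enzymes and survival. HIF is controlled largely at the protein level, which arrays of RNA do not measure.

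The sequences below define the groups, and are printed as the antisense strands of the siRNAs without their overhangs, with bases 2 to 8, the seed, in capitals.
siRNA 3488: tTTCCGGAgacgtacttct
siRNA 2600: tTGCGCACagaaatatagg
Scrambled control: aTTACCGAgcacattggagg
The 3 seeds differ. The siRNAs against Adamts16 have 19 bases and the scrambled strand has 20.

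The core of the site that HIF binds is ACGTG or GCGTG. It was searched on both strands (as CACGT or CACGC on the other strand) in the 300 bases from 250 before to 50 after each start site in RefSeq's table (GRCr8), and a CACGTG counts once per strand. At least 1 match stood in 24 of the 35 members found in that table (68.6%), against 12253 of all 27457 genes (44.6%). Any start site of a gene was enough, so genes with several had more chances. Shown are 4 members whose signals differed with siRNA 3488, with matches in capitals: Gk (chrX:54189682-54189981, minus strand, 1 match), Ldha (chr1:106507842-106508141, plus strand, 6), Gapdh (chr4:159652418-159652717, minus strand, 3) and Bnip3 (chr1:203154913-203155212, minus strand, 4).
Gk: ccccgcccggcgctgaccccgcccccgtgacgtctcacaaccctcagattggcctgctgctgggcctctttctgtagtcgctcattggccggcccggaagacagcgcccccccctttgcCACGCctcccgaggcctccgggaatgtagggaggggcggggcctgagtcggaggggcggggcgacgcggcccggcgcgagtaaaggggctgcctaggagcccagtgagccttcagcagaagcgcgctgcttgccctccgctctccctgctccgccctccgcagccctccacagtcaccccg
Ldha: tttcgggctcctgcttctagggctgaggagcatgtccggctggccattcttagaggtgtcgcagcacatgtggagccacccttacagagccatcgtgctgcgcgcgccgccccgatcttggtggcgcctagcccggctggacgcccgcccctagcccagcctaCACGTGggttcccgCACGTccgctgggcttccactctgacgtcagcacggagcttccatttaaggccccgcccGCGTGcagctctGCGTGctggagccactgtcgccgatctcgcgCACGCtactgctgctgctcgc
Gapdh: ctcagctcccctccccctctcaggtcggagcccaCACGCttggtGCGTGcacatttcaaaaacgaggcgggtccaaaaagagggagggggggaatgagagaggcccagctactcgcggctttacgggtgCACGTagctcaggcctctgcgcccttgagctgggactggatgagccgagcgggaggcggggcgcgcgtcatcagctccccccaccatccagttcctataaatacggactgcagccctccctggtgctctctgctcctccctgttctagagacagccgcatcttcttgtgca
Bnip3: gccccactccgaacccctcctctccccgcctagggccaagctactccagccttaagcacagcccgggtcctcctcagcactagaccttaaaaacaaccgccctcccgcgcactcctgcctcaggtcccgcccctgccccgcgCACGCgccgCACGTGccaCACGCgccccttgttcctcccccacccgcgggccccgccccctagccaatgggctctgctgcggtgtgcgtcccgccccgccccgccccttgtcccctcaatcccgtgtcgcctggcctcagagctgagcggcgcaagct
Ldha and Bnip3 each hold 1 CACGTG. Of the 11 members called with siRNA 3488 and found in the table, 9 held a match and 2, Tpi1 and Vhl, held none.

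Deposited signals were linear, in arbitrary units, and already scaled by the authors to a common trimmed mean, and the array medians ran from 126 to 139. Adamts16 itself had signals of 12.1 and 40.4 with siRNA 3488, against 21.4 and 2.42 with siRNA 2600 and 8.68, 7.18 and 18.9 in the control. These lie below the geometric mean of 68.3 needed for testing, so its knockdown could not be read. Of the epithelial markers, Krt8 (5698 to 7147) and Tjp1 (5901 to 6500) were bright on all arrays, whereas Krt18, Cdh1, Epcam and Pax2 reached at most 36.2. The first principal component carried 39.2% of the variance and put the siRNA 3488 arrays at -22.3 and -37.2, the siRNA 2600 arrays at 17.7 and -6.70, and the control arrays between 11.4 and 20.1. On the second, the siRNA 3488 arrays were at 5.75 and 1.16, both siRNA 2600 arrays stood apart at -24.9 and -16.2, and the control arrays were at 7.21 to 17.7. Beta-actin's 3′ over 5′ signal, a sign of RNA integrity, was 1.96 and 1.94 with siRNA 3488, against 1.83 and 1.81 with siRNA 2600 and 1.74 to 1.79 in the control. That of Gapdh was 0.941 and 0.929 with siRNA 3488, against 1.04 and 0.929 with siRNA 2600 and 0.908 to 0.948 in the control, so with siRNA 3488 it lay within the control range.

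The 60% of probe sets with the highest mean log2 signal were tested (18628), each comparison with limma and Benjamini-Hochberg adjustment over all of them, and a difference was called at an adjusted p under 0.05. Of the members, 50 probe sets of 34 genes passed the signal filter. With siRNA 3488 against the control, 17 were called (34%, against 15.7% of all tested), 13 higher (6.9% of all) and 4 lower (8.76% of all). By gene, 10 were higher and 3 lower. None of the 50 was called with siRNA 2600 against the control (1.03% of all were called, 0.548% higher and 0.483% lower), where 12 had an unadjusted p under 0.05. With both siRNAs as 1 group against the control, none was called either (0.145% of all were called, 0.102% higher and 0.0429% lower), and 16 had an unadjusted p under 0.05. Between siRNA 3488 and siRNA 2600, 7 were called (6.01% of all), 4 higher (2.84% of all) and 3 lower (3.17% of all).

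The median log2 difference of the 50 probe sets was 0.08 with siRNA 3488, against -0.06 over all tested. It was 0.04 against -0.02 with siRNA 2600, 0.07 against -0.05 with both, and 0.08 against -0.02 between the siRNAs. The arrays of siRNA 3488 and control did not overlap at 33 of the 50 (19 above, 14 below), against 50.3% of all tested probe sets, so this share was only somewhat above the background. All siRNA arrays stood clear of all control arrays at 17 of the 50 (12 above, 5 below), against 17.7% of all tested. In the plot of all tested genes by array, lower glycolysis and lactate dehydrogenase stand to the right with siRNA 3488, and Gk and Slc2a4 to the left. The siRNA 3488 signals of that Slc2a4 probe set were below the level for testing, and its second probe set differed by -0.01.

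**Figure D1:**
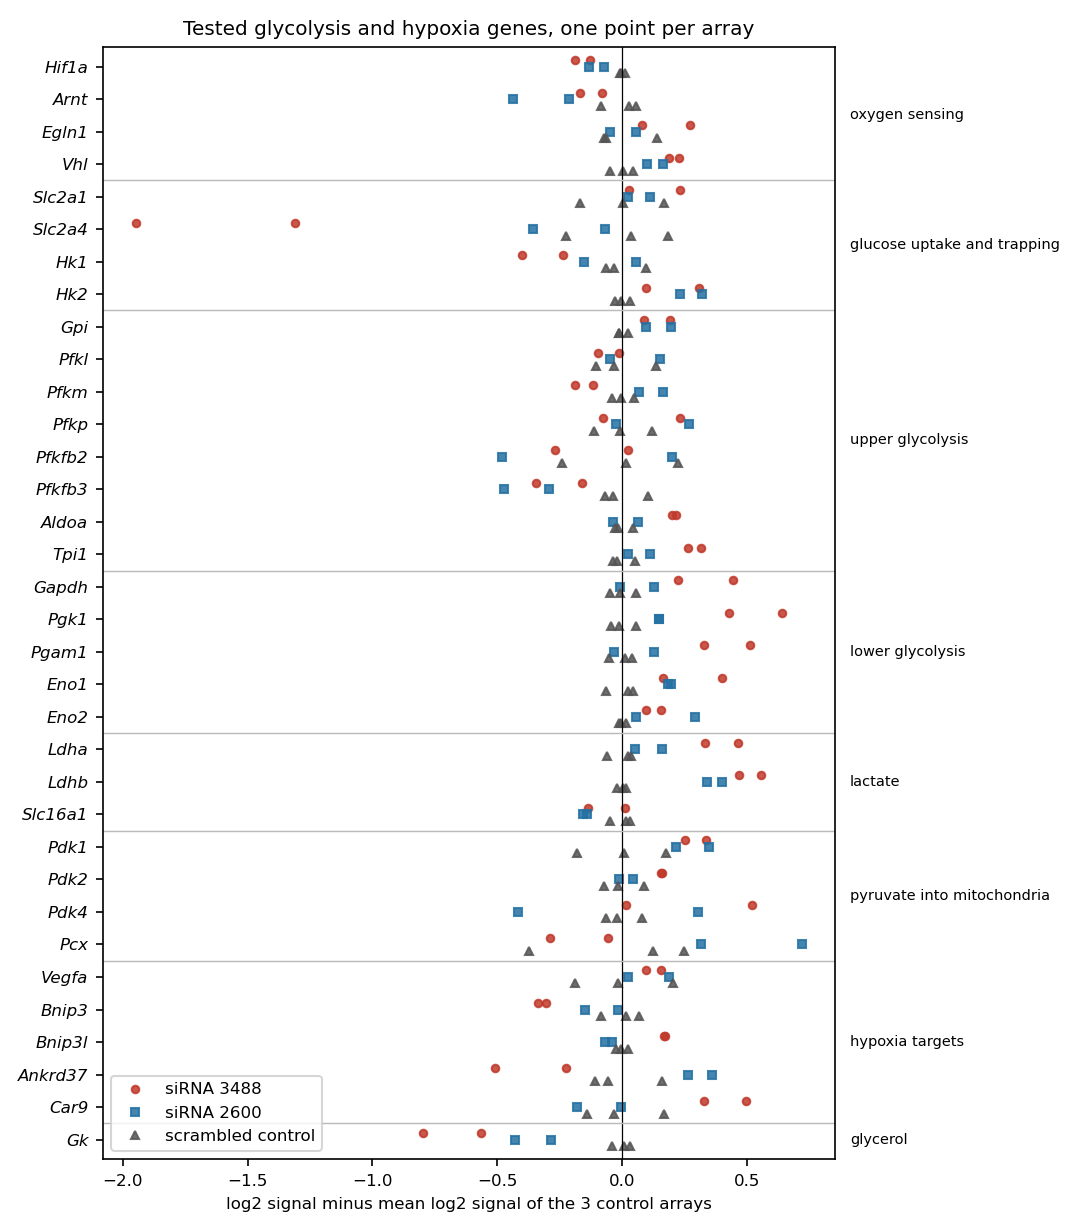
Log2 signal on each array minus the mean log2 signal of the 3 control arrays, for the brightest tested probe set of each of the 34 tested genes, grouped by role (red circles siRNA 3488, blue squares siRNA 2600, grey triangles control). Both siRNA 3488 arrays lie below all control arrays for Gk, Slc2a4 and Bnip3, and above them for Pgk1, Ldha and Ldhb.

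How bright a probe set was matters for reading these values. With siRNA 2600 the median difference of all probe sets climbed from -0.10 in the dimmest 10% tested to 0.05 in the brightest. With siRNA 3488 the climb was mostly at the bright end. There the median was -0.06 in the dimmest 10% and -0.04 in the tenth before the brightest. In the brightest 10% (signals from 2517) it was 0.15, and 37.5% were called higher. Of the 50 members, 17 lay in that range, and 12 of them were called higher (70.6%, from 9 of the 13 genes there). The median of the 17 was 0.29, while that of the other 33 was -0.06. Each member was therefore set beside the 500 tested probe sets nearest to it in mean signal, the equally bright ones, as a description. Less their median, the median member stood at 0.03 with siRNA 3488. Of all 50 members, 26 lay above the median of their equally bright probe sets, among them 9 of the 13 called higher. The 4 called lower all lay below it, but they were picked by these same differences, so this adds no support. Among these 4 is Slc2a4, whose siRNA 3488 signals were below the level for testing. The cause of the change of differences with signal was not tested.

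**Figure D2:**
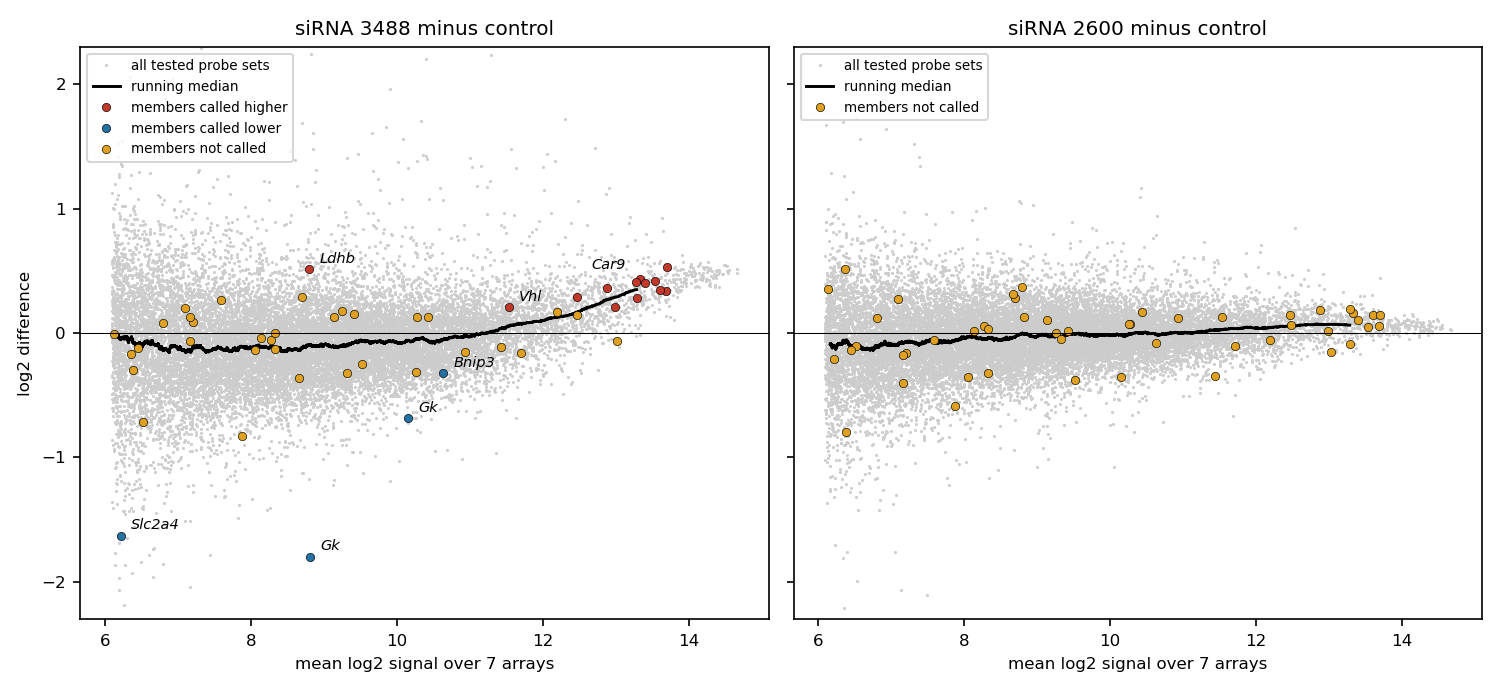
Log2 difference from the control against mean log2 signal, for siRNA 3488 (left) and siRNA 2600 (right); grey points are all tested probe sets within the plotted range, the black line their running median, and coloured points the members. With siRNA 3488 the line climbs at the bright end, where most of the members called higher lie, while Ldhb, Gk and Slc2a4 lie far from it. The siRNA 3488 signals of that Slc2a4 probe set are below the level for testing, so its distance gives no reliable size.

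The members are described by role, in groups drawn up after the signals had been seen, and counts within a role stand beside 6.9% higher and 8.76% lower over all tested probe sets. In the later steps of glycolysis, which yield ATP, 4 of the 5 tested genes rose with siRNA 3488 (Gapdh, Pgk1, Pgam1 and Eno1), out of 10 genes called higher in all roles. All 4 lay in the brightest 10%, where 37.5% of all probe sets were called higher. Pgk1, which makes the pathway's first ATP, had signals of 15614 and 18095 with siRNA 3488, against 12858 and 12856 with siRNA 2600 and 12060, 11532 and 11257 in the control. The siRNA 3488 arrays lay above all others, and the siRNA 2600 arrays above the control arrays. Against the control, Pgk1 rose by 0.53 ± 0.07 (log2 ± SE, adjusted p = 0.00337) with siRNA 3488. The value was 0.15 ± 0.07 (adjusted p = 0.376) with siRNA 2600 and 0.34 ± 0.12 (adjusted p = 0.199) with both. Its difference with siRNA 3488 exceeded that of 91.8% of equally bright probe sets, whose median was 0.35. Of the other Pgk1 probe sets, 1 was also called (0.37) and 1 was too dim to test.

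Gapdh, the enzyme before Pgk1, is read by 3 tested control probe sets along its transcript. The middle one had signals of 11262 and 13640 with siRNA 3488, against 9978 and 10549 with siRNA 2600 and 8888, 9459 and 9166 in the control. Neither siRNA overlapped the control there. It rose by 0.43 ± 0.08 with siRNA 3488 (adjusted p = 0.00881), and the 5′ and 3′ probe sets rose by 0.34 and 0.35. With siRNA 2600 the 3 values ran from 0.06 to 0.16, and with both siRNAs from 0.20 to 0.30, none called. Equally bright probe sets had a median of 0.35 with siRNA 3488, and the 3 Gapdh values stood at their percentiles 46.4 to 71.4, which is near the middle of bright probe sets in general.

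Pgam1, the mutase that follows Pgk1, had signals of 13552 and 15429 with siRNA 3488, against 10565 and 11792 with siRNA 2600 and 10416, 10902 and 11098 in the control. Only the siRNA 3488 arrays stood clear of the control. Pgam1 rose by 0.42 ± 0.08 (adjusted p = 0.00774) with siRNA 3488, at percentile 66.8 of equally bright probe sets. Eno1, the main enolase, rose by 0.28 with siRNA 3488, less than the 0.35 of equally bright probe sets. Eno2, the neuronal enolase, differed by 0.13 with siRNA 3488 and was not called.

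Lactate dehydrogenase has 2 main subunits, and both genes rose with siRNA 3488. Ldha, the subunit that favours lactate formation, had signals of 12338 and 13517 with siRNA 3488, against 10150 and 10945 with siRNA 2600 and 9386, 10030 and 9957 in the control. It rose by 0.40 ± 0.07 with siRNA 3488 (adjusted p = 0.00673), where equally bright probe sets had a median of 0.35 and Ldha stood at percentile 63. The values with siRNA 2600 (0.11) and with both siRNAs (0.25) were not called. Ldhb, the subunit typical of tissues that use lactate, had signals of 517 and 549 with siRNA 3488, against 493 and 473 with siRNA 2600 and 374, 377 and 368 in the control. All 4 siRNA arrays lay above all 3 control arrays. Ldhb rose by 0.51 ± 0.10 with siRNA 3488 (adjusted p = 0.00927). The values were 0.37 ± 0.10 with siRNA 2600 (adjusted p = 0.113) and 0.44 ± 0.09 with both (adjusted p = 0.0832). Unlike Ldha it was of middling brightness, its equally bright probe sets had a median of -0.10 with siRNA 3488, and it stood at their percentile 96.2, and at 95.8 with siRNA 2600.

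Of the lactate transporters, Slc16a1 was bright (7766 to 8850) and not called in any comparison, with differences of -0.06 with siRNA 3488, -0.15 with siRNA 2600 and -0.11 with both. It stood at percentiles 2.6, 1.6 and 0.4 of equally bright probe sets, whose medians were 0.29, 0.07 and 0.18. Once the arrays were quantile-normalised or cyclic-loess-normalised, Slc16a1 was called lower with siRNA 3488 (-0.32 and -0.28). Slc16a3, the exporter typical of glycolytic cells, had signals of 29.2 to 93.3 and was not tested.

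**Figure D3:**
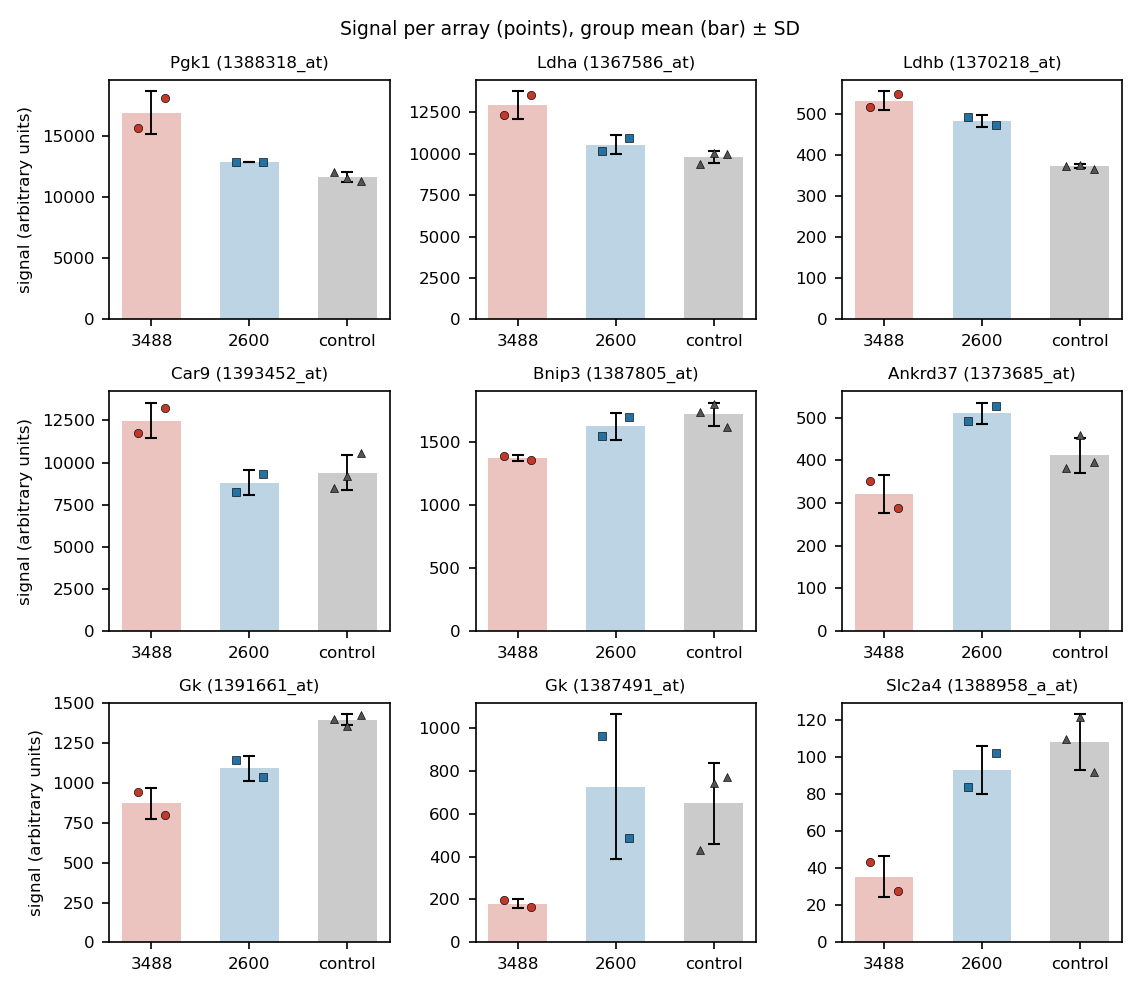
Signal on each array (points), group mean (bars) and SD (error bars) for 9 member probe sets of 8 genes, with siRNA 3488 in red, siRNA 2600 in blue and control in grey. Pgk1, Ldha, Ldhb and the brighter Gk probe set separate all 4 siRNA arrays from the 3 control arrays, as do 17.7% of all tested probe sets. Car9, Bnip3, Slc2a4 and the dimmer Gk probe set separate only the siRNA 3488 arrays.

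In the earlier steps of glycolysis, which use ATP, 2 of 8 tested genes were called with siRNA 3488 (15.7% of all tested probe sets were). Both were among the 3 of these genes in the brightest 10%, where 37.5% of all were called higher. Tpi1, which interconverts the triose phosphates, rose by 0.29, with signals of 6376 and 6607 with siRNA 3488 against 5175 to 5504 in the control. Aldoa, the main aldolase, rose by 0.21, less than the 0.29 of equally bright probe sets, and its sign turned under quantile normalisation (-0.07) and cyclic loess (-0.0003). Gpi, which isomerises glucose 6-phosphate, differed by 0.14 with each siRNA and was not called. The phosphofructokinase genes, the committed step, were not called: Pfkl and Pfkp differed by -0.05 and 0.08 with siRNA 3488, and the 2 Pfkm probe sets by -0.15 and -0.31. The dimmer Pfkm probe set was at 976 and 1095 with siRNA 3488, against 1402 and 1300 with siRNA 2600 and 1388, 1370 and 1109 in the control (adjusted p = 0.0733 with siRNA 3488). Pfkfb3, which makes the activator of phosphofructokinase, had signals of 747 and 657 with siRNA 3488, against 682 and 601 with siRNA 2600 and 896, 813 and 795 in the control. All 4 siRNA arrays lay below the control arrays, and the differences of -0.25, -0.38 and, with both siRNAs, -0.32 were not called (adjusted p = 0.115, 0.113 and 0.146). The second Pfkfb3 probe set and those of Pfkfb2 were dim, and none was called.

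Of the 4 genes tested for glucose uptake and trapping, 1 was called with siRNA 3488. Slc2a1, the basal glucose transporter and a textbook HIF target, had signals of 1213 and 1397 with siRNA 3488, against 1209 and 1285 with siRNA 2600 and 1334, 1191 and 1057 in the control. The groups overlapped, and the differences were 0.13, 0.07 and, with both siRNAs, 0.10, none called. Slc2a4, the insulin-responsive transporter of muscle and fat, had 1 probe set at 43.2 and 27.8 with siRNA 3488, against 83.9 and 102 with siRNA 2600 and 110, 122 and 91.9 in the control. Both siRNA 3488 arrays lay below every other array, while 1 siRNA 2600 array lay below the control range and 1 within it. The siRNA 3488 signals are below the 68.3 at which testing began, so the probe set was tested only through its higher signals in the other groups. Its fitted difference of -1.63 ± 0.31 with siRNA 3488 (adjusted p = 0.00913) therefore gives no reliable size, and with all lower signals raised to that level it was -0.65 and not called (adjusted p = 0.0599). The other Slc2a4 probe set differed by -0.01 with siRNA 3488. Hk1 and Hk2, which trap glucose in the cell, were not called at any probe set, and the brightest of each differed by -0.32 (adjusted p = 0.0616) and 0.20 with siRNA 3488. The 5′ control probe set of Hk1 differed by -0.71 with siRNA 3488 and the 3′ one by -0.04. The 3′ to 5′ ratio of hexokinase was 4.71 and 3.73 with siRNA 3488, against 3.54 and 2.28 with siRNA 2600 and 2.39 to 2.98 in the control.

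Among the oxygen sensors, Hif1a, the inducible HIF subunit, had signals of 3222 and 3088 with siRNA 3488, against 3343 and 3208 with siRNA 2600 and 3496, 3548 and 3506 in the control. Every siRNA array lay below every control array by a small margin. The differences were -0.16 with siRNA 3488 (adjusted p = 0.0955), -0.10 with siRNA 2600 (adjusted p = 0.443) and -0.13 with both (adjusted p = 0.293), so none was called. Under quantile normalisation and cyclic loess the difference with siRNA 3488 was -0.24 and called in each. Vhl, which directs HIF to destruction, had signals of 3257 and 3163 with siRNA 3488, against 2977 and 3111 with siRNA 2600 and 2687, 2784 and 2867 in the control. It rose by 0.21 with siRNA 3488, where equally bright probe sets had a median of 0.05. The partner subunit Arnt (-0.13) and the prolyl hydroxylase Egln1 (0.18) were not called with siRNA 3488. Epas1, the second HIF alpha gene, and Egln3, a hydroxylase that HIF induces, had signals of 22.0 to 90.0 and 18.5 to 39.4 and were not tested in any comparison.

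Of 5 further HIF targets tested, 1 rose and 1 fell with siRNA 3488. Car9, the cell-surface carbonic anhydrase that HIF induces, rose by 0.41 with siRNA 3488, with signals of 11754 and 13234 against 8508 to 10536 in the control. Equally bright probe sets had a median of 0.35, and Car9 stood at percentile 65.8. Bnip3, which promotes removal of mitochondria, had signals of 1391 and 1358 with siRNA 3488, against 1548 and 1699 with siRNA 2600 and 1734, 1800 and 1620 in the control. It fell by 0.32 on the log2 scale with siRNA 3488, while the values with siRNA 2600 (-0.08) and both (-0.20) were not called, and under median centring its call was lost (-0.23). Its relative Bnip3l had probe sets that disagreed: 1 differed by 0.17 and the other by -0.11 with siRNA 3488. The second was at 2507 and 2264 with siRNA 2600, against 3002, 2984 and 3098 in the control. Its difference of -0.35 with siRNA 2600 just missed the threshold (adjusted p = 0.0523) and was called under 4 other settings and without siRNA 2600 replicate 1 (-0.42). Vegfa, the vessel growth factor, had 2 probe sets that differed by 0.13 and -0.14 with siRNA 3488, none called; the values were 0.11 and -0.36 for siRNA 2600 and 0.12 and -0.25 for both. Ndrg1, a stress gene, and Adm, the vasodilator adrenomedullin, were too dim to test. The brighter Ndrg1 probe set had signals of 99.5 and 95.5 with siRNA 3488, against 46.2 and 41.7 with siRNA 2600 and 33.3, 27.5 and 56.0 in the control. Adm was at 13.7 and 29.5 with siRNA 3488, against 4.22 and 8.67 with siRNA 2600 and 2.11, 6.08 and 3.48 in the control.

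The members that steer the use of pyruvate inside mitochondria, Pdk1, Pdk2, Pdk4 and Pcx, were not called in any comparison. Pdk1, the kinase that HIF induces, had 1 probe set at 440 and 467 with siRNA 3488, against 430 and 471 with siRNA 2600 and 372, 326 and 418 in the control. All siRNA arrays lay above the control arrays, by 0.29, 0.28 and, with both siRNAs, 0.29, none called. Its second probe set differed by 0.002, 0.03 and 0.02. Pdk2 also had probe sets that disagreed, at 0.16 and -0.83 with siRNA 3488 (adjusted p = 0.0685 for the second). Pdk4 and Pcx, the carboxylase that makes oxaloacetate from pyruvate, were dim, and differed by 0.27 and -0.17 at their brightest tested probe sets with siRNA 3488.

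Gk, the glycerol kinase that feeds glycerol into the triose phosphates, stood far below equally bright probe sets with siRNA 3488. The brighter probe set had signals of 942 and 801 with siRNA 3488, against 1146 and 1037 with siRNA 2600 and 1401, 1357 and 1425 in the control. No siRNA array reached the lowest control array. Gk fell by 0.68 ± 0.09 on the log2 scale with siRNA 3488 (adjusted p = 0.00287), and the values were -0.36 ± 0.09 with siRNA 2600 (adjusted p = 0.0988) and -0.52 ± 0.11 with both (adjusted p = 0.0858). It stood at percentiles 0.4, 2.4 and 0 of equally bright probe sets. The dimmer probe set had signals of 197 and 165 with siRNA 3488, against 964 and 488 with siRNA 2600 and 429, 741 and 772 in the control. It fell by 1.80 ± 0.29 on the log2 scale with siRNA 3488 (adjusted p = 0.0059), while 1 siRNA 2600 array lay above the control range and 1 within it, with a difference of 0.13. The probe sets thus shared a direction with siRNA 3488 and not with siRNA 2600.

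With siRNA 2600 no member was called. The highest differences were those of Pcx (0.52), Ldhb (0.37) and the dimmer Slc2a4 probe set (0.35). Control signals of that Slc2a4 probe set ran from 49.1 to 88.4, around the 68.3 at which testing began. It was tested only through its siRNA 2600 signals of 67.7 and 102, so its difference gives no reliable size. The lowest differences with siRNA 2600 were those of a Pfkfb2 probe set (-0.80), the dimmer Pdk2 probe set (-0.58) and the dimmer Pfkfb3 probe set (-0.40). That Pfkfb2 probe set had siRNA 2600 signals of 56.9 and 62.5, below the level for testing. It was tested only through its higher signals in the other groups, so its difference gives no reliable size. With both siRNAs together, the highest were Ldhb (0.44), Pgk1 (0.34) and Gapdh (0.30). The lowest were the brighter Slc2a4 probe set (-0.92), the dimmer Gk probe set (-0.83) and the dimmer Pdk2 probe set (-0.70). For Slc2a4 the siRNA 3488 signals were below the level for testing, so its value gives no reliable size. The mean of both siRNA effects was also taken from the fit of 3 groups, in which the siRNAs may differ. There, 9 of the 50 members (18%) and 1382 of all 18628 probe sets were called. The lower members were the brighter Gk, the dimmer Bnip3l and the brighter Pfkfb3 probe set. The higher ones were Ldhb, Ldha, 2 Pgk1 and 2 Gapdh probe sets. With both siRNAs the brighter Bnip3l and Pdk2 probe sets differed by 0.06 and 0.09. Without siRNA 2600 replicate 1, 3 of the 50 members (6%) were called in the fit of 2 groups. They were the brighter Gk probe set (-0.60), Ldhb (0.46) and the dimmer Pdk2 probe set (-0.90). In that fit 1313 of all 18628 probe sets were called, so the members' share was near that of all.

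Set directly against siRNA 2600, siRNA 3488 gave higher signals of Pgk1, Pgam1, Ldha and Car9, and lower signals of the dimmer Gk probe set, Slc2a4 and Ankrd37. Ankrd37, an ankyrin repeat gene that HIF induces, had signals of 352 and 289 with siRNA 3488, against 493 and 528 with siRNA 2600, and the control arrays lay between, at 381, 459 and 395. The difference was -0.68 ± 0.14 (adjusted p = 0.0275), while neither siRNA was called against the control (-0.37 and 0.31). Car9 differed by 0.50 ± 0.11 (adjusted p = 0.0279), where equally bright probe sets had a median of 0.28 and Car9 stood at percentile 98. Pgk1 differed by 0.39 ± 0.08 (adjusted p = 0.0258), Pgam1 by 0.37 ± 0.08 (adjusted p = 0.0332) and Ldha by 0.29 ± 0.07 (adjusted p = 0.0467), at percentiles 75, 72.2 and 55 of equally bright probe sets. The dimmer Gk probe set differed by -1.93 ± 0.32 (adjusted p = 0.0144). Slc2a4 differed by -1.42 ± 0.34 (adjusted p = 0.0393), again with siRNA 3488 signals below the level for testing. With lower signals raised to that level the difference was -0.44 and not called (adjusted p = 0.278), and the call was kept under 6 of 17 alternatives. The genes followed throughout were not called here at Hif1a (-0.05), Slc2a1 (0.06), Bnip3 (-0.24), Pdk1 (0.01 and -0.03), Vegfa (0.02 and 0.22), Gapdh (0.20 to 0.28) or the brighter Gk probe set (-0.33). No member was called when only the 4 siRNA arrays were fitted, where 29 of all probe sets were called. Leaving out an siRNA array left 1 array in its group, so those fits are poor support for any call. Without control replicate 1, 3 members and 439 of all probe sets were called. The counts were 2 and 367 without control replicate 2, and 3 and 500 without control replicate 3.

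**Figure D4:**
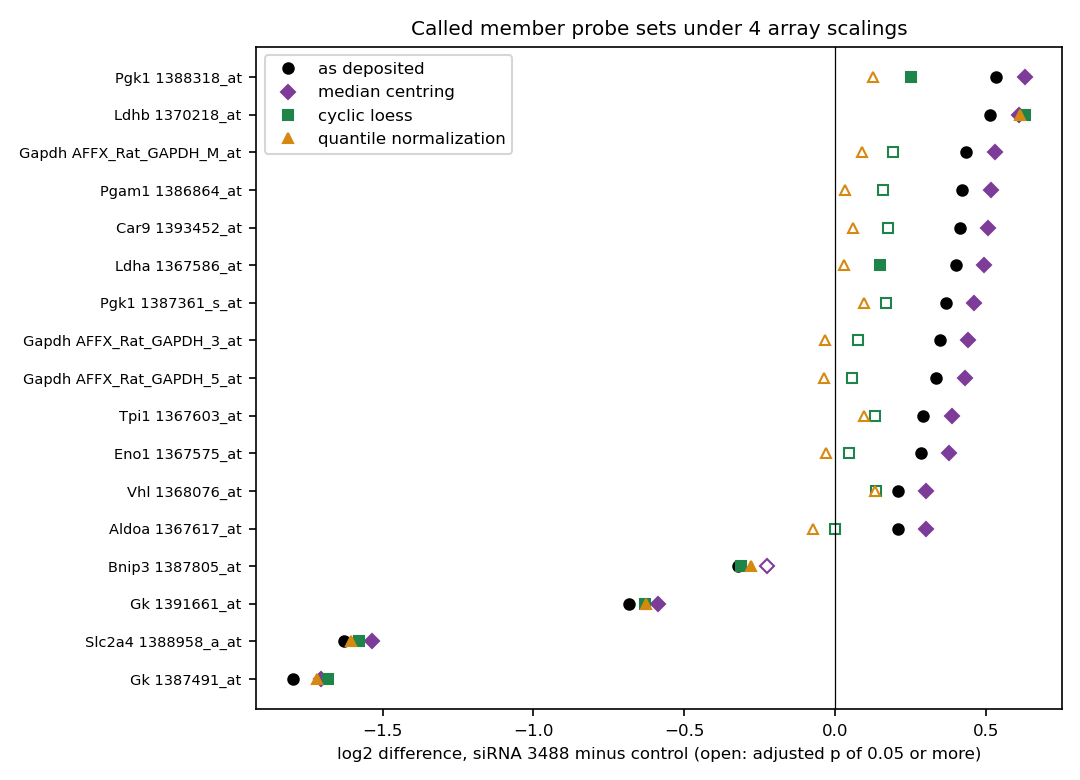
Log2 difference between siRNA 3488 and control for the 17 called member probe sets under the deposited scaling and 3 other array scalings; filled symbols have an adjusted p under 0.05 and open symbols do not. The higher members other than Ldhb shrink toward 0 under cyclic loess and quantile normalisation, while Ldhb, Gk and Slc2a4 stay called under all 4. The siRNA 3488 signals of Slc2a4 are below the level for testing, and its call was lost with lower signals raised to that level.

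Most of the higher calls with siRNA 3488 depended on array scaling. Of the members, 13 were higher and 4 lower as deposited, 14 and 3 after median centring, 3 and 6 after cyclic loess, and 1 and 6 after quantile normalisation. The 1 higher member after quantile normalisation was Ldhb, and cyclic loess added Pgk1 and Ldha. Over all tested probe sets the split was 1286 higher and 1631 lower as deposited. It was 991 and 960 after cyclic loess, 852 and 987 after quantile normalisation, and 1730 and 579 after median centring. Centring moved it likewise with siRNA 2600 (160 and 45, against 102 and 90 as deposited) and with both siRNAs (62 and 4, against 19 and 8). The count also fell when an siRNA 3488 or control array was left out. Each such fit has fewer arrays, and leaving out an siRNA 3488 array leaves 1 in its group. Whether the lost precision or the array itself changed the count was not tested. Without siRNA 3488 replicate 2, 2 members were called, Pgk1 and the brighter Gk probe set, and 472 of all probe sets. Without control replicate 1 it was 10 members and 969 of all, and without control replicates 2 and 3, 1347 and 1741 of all.

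Other genes of these pathways were followed as a further list of 69, of which 63 were on the array and 50 tested. It too was drawn up with earlier results of these data known, so its shares are descriptions. With siRNA 3488, 8 were higher and 3 lower (22%, against 15.7% of all tested probe sets; 16% higher, against 6.9%), and none was called with siRNA 2600 or with both siRNAs. Of the 8 higher genes, 7 lay among the 12 of the list in the brightest 10%, where 37.5% of all probe sets were called higher. The higher ones included the Vhl complex partners Rbx1 (0.30), Elob (0.35) and Eloc (0.40), Bsg (0.43), the chaperone of the lactate transporters, the collagen-modifying P4ha2 (0.23), P4hb (0.38) and Lox (0.41), and Higd1a (0.31), a mitochondrial protein. The lower ones were the muscle enolase Eno3 (-0.24), the pyruvate dehydrogenase phosphatase Pdp1 (-0.31) and Txnip (-0.35), which restrains glucose uptake. The median of the 50 was -0.02, against -0.06 over all tested probe sets.

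A few markers of other cell types were called with siRNA 3488 too. The summed signal of 8 fibroblast markers was 28398 and 32350 with siRNA 3488, against 22624 and 24199 with siRNA 2600 and 21967 to 22703 in the control. Of its 4 tested genes, 2 rose with siRNA 3488, Col1a1 (0.44) and Col3a1 (0.44), and Col3a1, at 19019 to 28463, made up most of the sum. Probe sets as bright as Col3a1 had a median of 0.35, and those as bright as Col1a1 a median of 0.04. Col1a2 (0.30) and Pdgfrb (0.08) were not called, and Pdgfra, Dcn, Lum and Thy1 were too dim to test. Among 4 blood cell markers, summing to 434 and 443 with siRNA 3488, against 270 and 324 with siRNA 2600 and 306 to 349 in the control, the 1 tested, Cd68, rose (0.67). Hbb, too dim to test, was at 17.0 to 26.1 on the siRNA arrays and 39.2 to 86.8 in the control. No marker of kidney epithelium, differentiated proximal tubule or endothelium was called. The part of these markers, or of the 3′ to 5′ ratios, in the members' differences was not tested, and fewer cells of a type cannot be told apart from less RNA per cell in bulk cultures.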

How the data were processed

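RNA of 7 NRK-52E cultures was measured on 7 arrays. Per the submitters' processing notes, GCOS 1.4 gave the intensity values that the authors deposited, linear signals with 1 value for each probe set on each array. Its settings for background, summary and scaling were not given in the sources used here. Precision is limited by the number of arrays.

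Values below 1 became 1 before log2 transformation. Mean log2 signal ranked the probe sets, and the upper 60% entered limma 3.58.1 (R 4.3.3; lmFit, then eBayes with its trend on intensity), adjusted by Benjamini-Hochberg over all 18628. A model of 2 groups compared both siRNAs with the control. A model of 3 groups on all 7 arrays gave the other 3 comparisons, so those that share an siRNA or the control arrays are not independent. Probe sets came from the platform's annotation, and those with several symbols named no gene, among them a further probe set of Gapdh. A gene was counted by its brightest tested probe set. The 500 nearest probe sets in mean signal describe equal brightness.

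The members and lists were chosen with earlier results of these data known. Role groups were drawn up after the members' signals had been seen. So was the choice to keep 6 control probe sets, 3 of Gapdh and 3 of Hk1, while the other 51 control probe sets were left out. Without the 6, 14 members instead of 17 were called with siRNA 3488, the 3 lost being those of Gapdh. All called members are named, at most 8 per comparison with every array's signal, lowest p first, and 10 genes are given in every comparison. Other scalings, filters, floors, spreads, groupings and left-out arrays were tried, and the scripts were tested on simulated data.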

Additional observations from a re-analysis of the deposited data

Results flagged for a closer look

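In a test of the difference itself, the effects of siRNA 3488 and siRNA 2600 differed for 7 of the 50 member probe sets (14%). The test was limma, adjusted over all 18628 probe sets, of which 6.01% were called. The 4 higher members lay in the brightest 10%, where 16.6% of all were called higher. With only the 4 siRNA arrays fitted, no member was called. The log2 difference of siRNA 3488 minus siRNA 2600 was 0.39 for the brightest Pgk1 probe set, 0.37 for Pgam1, 0.29 for Ldha and 0.50 for Car9. It was -1.42 for the brighter Slc2a4 probe set, whose siRNA 3488 signals were below the level for testing, -0.68 for Ankrd37 and -1.93 for the dimmer Gk probe set. The dimmer Gk probe set kept its call under 14 of 18 alternatives, Ankrd37 under 11, Car9 under 10, Pgk1 under 9, Pgam1 under 8 and Ldha under 7, and Slc2a4 under 6 of 17. No group has 4 or more arrays, so single outlying arrays were not tested for.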

How the results depend on the processing

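Besides the reported settings, 12 alternatives and the omission of each of the 7 arrays were run, and each comparison took those that apply to it. With siRNA 3488, 17 members and 2917 of all probe sets were called. Quantile normalisation gave 7 and 1839, cyclic loess 9 and 1951, and a fit without the intensity trend 4 and 603. Omitting single arrays gave 2 to 19 members and 472 to 3624 of all. The sign turned under quantile normalisation for Aldoa (-0.0747), Eno1 (-0.0317) and the Gapdh 5′ (-0.0366) and 3′ (-0.0340) probe sets, and under cyclic loess for Aldoa (-0.00032). The brighter Gk probe set kept its call under all 18 alternatives, the brightest Pgk1 probe set and Ldhb under 17 and the dimmer Gk probe set under 16.

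With siRNA 2600 (0 members, 192 of all), 1 member was called under quantile normalisation (264 of all) and under cyclic loess (214 of all). The upper 40% of probe sets also gave 1 member (227 of all), as did signals raised to the filter level (230 of all). Of all probe sets, 91 were called with no filter and 0 without the trend. Omitting single arrays gave 0 to 1 members and 25 to 235 of all. With both siRNAs (0 members, 27 of all), quantile normalisation called 50 of all and median centring 66, while no filter and no trend called 0. The mean of the effects in 3 groups called 9 members and 1382 of all. Omitting single arrays gave 0 to 3 members and 0 to 1313 of all.

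Between siRNA 3488 and siRNA 2600 (7 members, 1119 of all), the counts were 2 and 574 after quantile normalisation, 3 and 694 after cyclic loess, and 2 and 459 with no filter. They were 0 and 5 without the trend, and 0 and 29 with the compared arrays only. Median centring called 722 of all. Omitting single arrays gave 0 to 12 members and 103 to 1562 of all. The members' median difference turned to -0.00762 after quantile normalisation and to -0.000512 less equally bright probe sets. Where an array was left out the fit had fewer arrays, and the counts mostly fell but sometimes rose. The cause of the changes between settings was not tested.

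Arrays of equal replicate number deviated from their group means with correlations of -0.0485 to 0.162. With 2 arrays in each siRNA group these deviations mirror each other, so the correlations cannot decide whether the numbers pair the arrays. With the number as a replicate block, 17 members and 2724 of all probe sets were called with siRNA 3488. Between the siRNAs it was 11 and 1564, against 7 and 1119 without the block. Of all probe sets, 0 were called with both siRNAs and 67 with siRNA 2600.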
